A study of Mus musculus with 13 samples.

Results

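Polyadenylated RNA of the nucleus was compared with that of the cytoplasm in mouse oocytes that had lost the RNA helicase MTR4. The comparison covered every gene that reached 1 in the MTR4-null nucleus column, the MTR4-null cytoplasm column or both, which made 14958 of the 23235 genes in the deposited table. Of these, 12675 reached 1 in both columns, 462 in the nucleus only and 1821 in the cytoplasm only. Both null groups came from oocytes of the genotype labelled Mtr4-null at day 21, with 2 libraries labelled for nuclei and 2 for cytoplasms. The sources used here do not say how the gene was deleted. Each library held RNA of 10 nuclei or 10 cytoplasms pulled apart with micromanipulation tools and was prepared by Smart-seq2, which starts reverse transcription at the poly(A) tail and works on very little RNA. WT oocytes served for comparison only. Their libraries are labelled day 14 or day 21, and the WT columns do not say which they hold.

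In a cell's nucleus, new RNA is capped, spliced, given a poly(A) tail and then exported or degraded. MTR4 unwinds RNA and threads it into the nuclear exosome, a 3' to 5' degrading complex. It does so with adaptor proteins grouped as TRAMP, NEXT and PAXT, which recognise noncoding, short-lived or unexported transcripts. A growing oocyte transcribes heavily and stores most of its messenger RNA in a large cytoplasm, so the stored pool is the background against which nuclear RNA is read.

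The table held 1 value per gene and compartment, so no spread between libraries could be measured and no test was possible. Read depth is unknown, and the digits of the null cytoplasm values leave it unclear whether that column averages both libraries. Every difference below describes these columns only. The null nucleus column summed to 1396110 and the null cytoplasm column to 3007240, and the median gene had a value 3.06-fold higher in the cytoplasm. That factor depends on how the columns were scaled, which is not given. Each difference was therefore taken relative to the median nucleus to cytoplasm ratio, on the log2 scale after 1 was added to each rescaled value, which understates the difference of low genes. A relative difference of 0 means that a gene was split between the compartments like the median gene, and 1 means 2-fold more in the nucleus than that. Small RNA entries, chosen by symbol, held 17.9% of the nuclear total and 6.85% of the cytoplasmic total. The symbol rule also takes in 2 longer RNAs, the ribosomal RNA precursor Rn45s (12751 and 28371) and Mir17hg (4.94 and 3.51).

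The RNA of the 2 compartments was alike in rank. Across the 14958 genes the Spearman correlation between nucleus and cytoplasm was 0.893, and genes are not independent replicates. Relative to the median gene, nuclear values at least 2-fold higher were found for 1968 genes (13.2%) and at least 2-fold lower for 1534 (10.3%). A gene is called higher or lower below by this threshold. The other 11456 lay between. As deposited, without rescaling, the same threshold was passed by 585 genes (3.91%) towards the nucleus and 10670 (71.3%) towards the cytoplasm, and the median log2 difference was -1.46. Higher nuclear values were most frequent at both ends of the range. Where the larger value lay between 1 and 5, 23.5% of 2887 genes were higher in the nucleus, and where it was at least 1000, 19.5% of 601 were. Those 601 include small RNA entries and repeat-holding genes, described below, so the share is not one of ordinary messages alone. Between 100 and 1000 the share was 6.54% of 3823. A gene that passed the filter through 1 column only had its larger deposited value there. After rescaling, a gene that passed through the cytoplasm column alone could still lie on either side of the median gene. Shares at low values are thus partly set by the filter. Among genes with at least 1 in both columns, 1514 were higher and 933 lower.

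Skiv2l2, which codes for MTR4 itself, had a nuclear value of 3.54 and a cytoplasmic value of 4.36 in the null columns, against 13.3 and 187 in the WT columns. The targeted transcript was thus low in both null compartments. What remained was split towards the nucleus, with a relative log2 difference of 1.04. The other members of the MTR4 partner list, which holds the TRAMP, NEXT and PAXT proteins and other cofactors, were mostly split like the median gene. Of its 16 members, Skiv2l2 was the 1 that was at least 2-fold higher in the nucleus, 2 were lower and 13 lay between (median -0.10). Rbm7, the RNA-binding subunit of NEXT, had a nuclear value of 52.4 and a cytoplasmic value of 538 (-1.74). C1d, an exosome cofactor, had 7.01 and 93.7 (-2.04). Mphosph6, another exosome cofactor, had the highest level of the list with 1271 and 5780 (-0.57). The 12 exosome subunit genes had a median of 0.12 with 0 higher and 0 lower. Exosc2, an RNA-binding cap subunit, had 2975 and 4884 (0.90), and Exosc10, the nuclear exonuclease, had 31.1 and 51.8 (0.85).

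Small nucleolar RNAs, which guide the chemical modification of ribosomal RNA, and their Cajal body counterparts were mostly on the nuclear side, many of them with no cytoplasmic value at all. Most of them work without a poly(A) tail, so values from these libraries need not reflect their full amount. Which molecules gave the reads is not known. Of 114 in the table, 62 were kept, and 55 of the 62 (88.7%, against 13.2% of all kept genes) were higher in the nucleus. Another 5 were lower (49 higher and 7 lower as deposited). Snora47 had the highest value of any gene in the null nucleus, 38257, and 2673 in the cytoplasm. Snord100 had 9635 and 2112. Snord19 had 17402 in the nucleus and was listed at 0 in the cytoplasm, as were Scarna17 (15167), Snora20 (6404) and Snord90 (5506). In all, 38 of the 62 were listed at 0 in the cytoplasm and 4 in the nucleus. Of those 4, Snord96a had 977 in the cytoplasm and Snora44 had 404. A value of 0 may be a failed estimate for so short a gene, so no fold is given for these. The kept list's median of 8.0 falls among such members and is set by the added 1. Among members with at least 1 in both columns the median lay 2.91 above that of all genes. Outside the symbol rule, the small nucleolar RNA genes AF357425 (3063) and Gm12238 (219) had nuclear values and were also listed at 0 in the cytoplasm.

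MicroRNA gene entries went both ways. The table held 615, of which 70 were kept, 37 of these (52.9%) being higher in the nucleus, 26 (37.1%) lower and 7 between. Mir1843b had 8568 in the nucleus and was listed at 0 in the cytoplasm. Mir1956 (8768), Mir24-1 (6337) and Mir3064 (4684) had cytoplasmic values and were listed at 0 in the nucleus. Mir484 had the highest value of any gene in the null cytoplasm, 30448, against 4315 in the nucleus (-1.21). Mir1894 had a nuclear value of 8688 and a cytoplasmic value of 11836 (1.17). Mir484 and Mir1894 were listed at 0 in both WT columns, so their levels are uncertain. Mir1940 had 13580 and 903 (5.52). The entries named here are short hairpin genes, while the list also holds the longer cluster transcript Mir17hg. Libraries copied from poly(A) tails are not made to hold the mature microRNA, so a value need not reflect its amount. Which molecules over the hairpin gave the reads is not known. Of the kept entries, 20 had no nuclear value and 26 no cytoplasmic value (listed at 0). The mature sequences are shown for Mir484 and for the 4 entries named above as at 0 in 1 compartment, so that a reader can tell which microRNAs these loci make. They come from RefSeq (GRCm38.p6), with the seed, bases 2 to 8, in capitals. The 8 sequences carry 8 distinct seeds, so these 5 entries share none.
miR-1843b-5p: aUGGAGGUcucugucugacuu
miR-1843b-3p: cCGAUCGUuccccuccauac
miR-484: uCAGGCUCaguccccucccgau
miR-1956: aGUCCAGGgcugagucagcgga
miR-24-1-5p: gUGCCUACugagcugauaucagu
miR-24-3p: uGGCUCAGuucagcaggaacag
miR-3064-5p: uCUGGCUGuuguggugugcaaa
miR-3064-3p: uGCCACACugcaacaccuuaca

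Long noncoding RNAs known to stay in the nucleus lay on the nuclear side. The table held 15 and 11 were kept, with 6 higher in the nucleus and 0 lower (median 1.33), against 2 higher and 4 lower as deposited. Malat1, which concentrates in nuclear speckles, had a nuclear value of 364 and a cytoplasmic value of 136 (3.02). Kcnq1ot1, the antisense RNA that silences an imprinted cluster, had 13.6 and 3.55 (3.03). Both were higher in the nucleus as deposited as well. The list's median, 1.38 above that of all genes, was 0.62 above it with 5 added in place of 1, 0.76 with at least 1 in both columns and 0.70 with at least 5 in 1 column. Meg3, an imprinted RNA, had 21.2 and 16.1 (1.90), and Mir17hg, the primary transcript of a microRNA cluster, had 4.94 and 3.51 (1.68). Airn, the imprinted antisense RNA of Igf2r, had 18.4 and 39.8 (0.48), a split within 2-fold of the median gene. Xist, the RNA that coats the inactive X chromosome, had 9.37 and 16.1 (0.77). Without stranded counting being stated, reads of antisense RNAs such as Kcnq1ot1 and Airn cannot be told from those of the genes they overlap.

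Over all genes of the RefSeq class long noncoding RNA, 289 of 890 (32.5%) were higher in the nucleus and 74 (8.31%) lower, with a median of 0.35. With a larger value of at least 20 the shares were 27.3% and 5.35% of 374 genes, beside 8.32% and 9.34% of all 9166 such genes. A330069E16Rik, a long noncoding RNA, was among the 5 highest genes in both columns, with a nuclear value of 16107 and a cytoplasmic value of 21467 (1.20). Pseudogenes were split in like manner, with 64 of 182 (35.2%) higher and 18 lower. Their reads can come from near-identical parent genes. Gm9786 had 56.1 in the nucleus and Rps19-ps3 30.4, with values under 0.001 or listed at 0 in the cytoplasm. Of 13602 protein-coding genes, 1490 were higher and 1394 lower (median -0.078).

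Host genes of small nucleolar RNAs carry these RNAs in their introns, and their spliced remainders are mostly noncoding. Of 12, 5 were higher in the nucleus and 1 lower (median 0.77), against 1 higher and 5 lower as deposited. Snhg8 had a nuclear value of 23.2 and a cytoplasmic value of 10.8 (2.53), Snhg12 had 15.1 and 9.63 (2.07), and Snhg11 had 102 and 73.1 (2.07). The most abundant of them lay on the other side. Snhg9 had 2075 and 10043 (-0.66) and Snhg3 had 140 and 1368 (-1.67). The list thus held members far out on either side.

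The genes highest in the nucleus by the naming rule, other than small RNAs and pseudogenes, differed widely in level. Pola2, a subunit of DNA polymerase alpha, had a nuclear value of 23006 and a cytoplasmic value of 740, a relative log2 difference of 6.57. In WT it had 1639 and 482. Pbld1 had 16155 and 1433 (5.11), and in WT 1072 and 149. Tspan15, a tetraspanin membrane protein gene, had 1459 and 106 (5.37), and in WT 55.3 and 23.2. These 3 were higher in the nucleus than the cytoplasm in both genotypes, also as deposited. Cort, a neuropeptide gene, had 44.1 and 1.65 (5.33), the cytokine gene Il11 had 44.4 and 1.95 (5.22) and the noncoding 4930578E11Rik had 85.5 and 3.25 (5.72). None of the last 3 reached 100 in either column. LOC100861572 had 946 in the nucleus and was listed at 0 in the cytoplasm and in both WT columns.

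Receptor genes of smell and pheromone detection, which are best known from sensory neurons, gave low values that lay on the nuclear side. The table held 1441 and 94 were kept, with 40 (42.6%) higher in the nucleus and 9 (9.57%) lower (median 0.71). Of all genes 13.2% were higher and 10.3% lower. As deposited the list had 25 higher and 31 lower. In each compartment 16 kept members were listed at 0. The list's median was 0.76 above that of all genes. It was 0.32 above with 5 added in place of 1 and 0.91 above with at least 5 in 1 column. Olfr856-ps1 had 90.8 and 6.39 (5.10), Olfr613 had 33.1 and 2.94 (4.46) and Vmn1r58 had 43.8 and 6.06 (4.12). In WT these 3 had 12.8 and 1.31, 4.81 and 0.559, and 9.25 and 1.0 in the same order. Vmn1r65, the most abundant member, had 150.3 and 152 (1.58) in null and 6.45 and 125.5 in WT. Over the list in WT, 17 of 103 kept members were higher and the median was -0.22. Of 22 interferon response genes kept out of 36, 9 were higher in the nucleus and 2 lower (median 0.53), beside 13.2% and 10.3% of all genes, against 0 and 10 as deposited. With at least 5 in 1 column the list's median was 0.086 above that of all genes, against 0.59 with the filter at 1. Xaf1, a pro-apoptotic interferon target, had 1468 and 892 (2.33), and its transcript holds a stretch of the B2 repeat, which makes its level uncertain. The antiviral genes Isg15 (4.72 and 2.63) and Slfn2 (3.45 and 1.66) were near the filter. Bst2, the antiviral membrane tether tetherin, was far on the cytoplasmic side with 11.1 and 255 (-2.85).

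**Figure D1:**
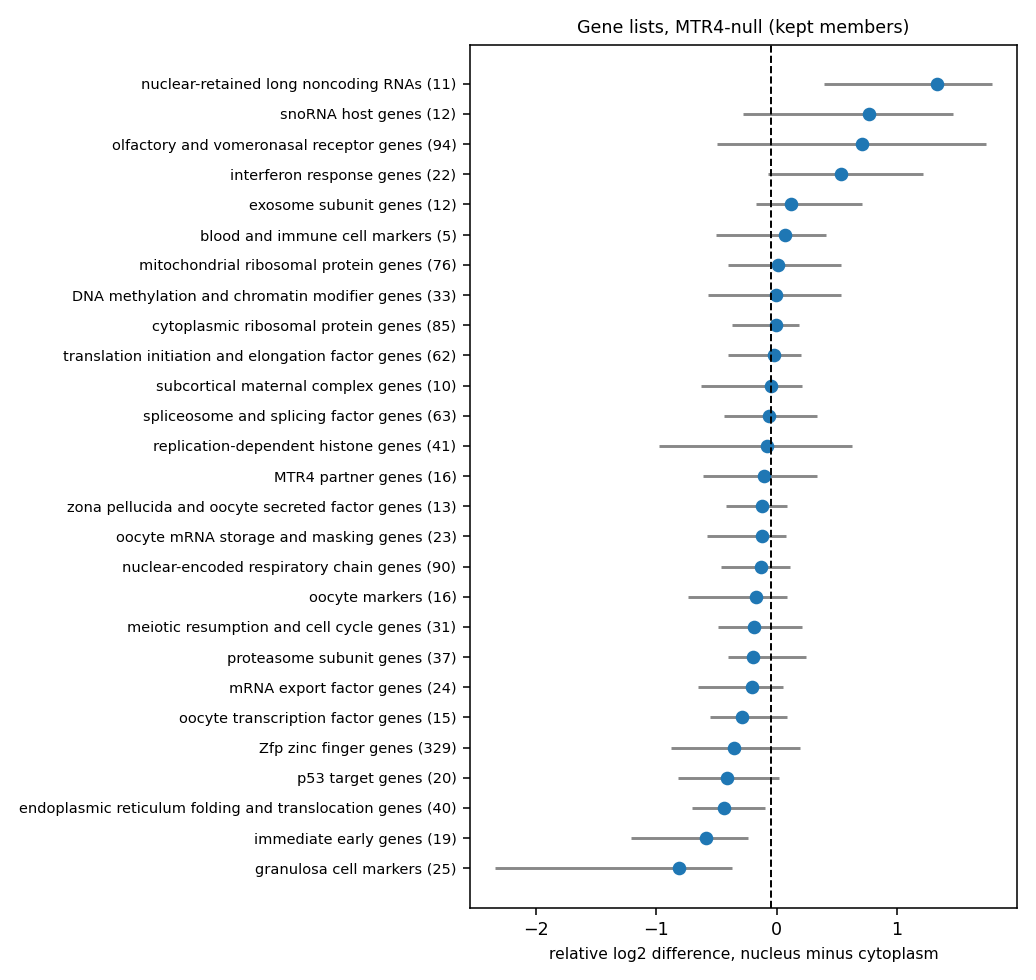
Median (point) and quartiles (line) of the relative log2 difference, nucleus minus cytoplasm, in each gene list of MTR4-null oocytes, with the number of kept members in brackets; the dashed line is the median of all kept genes and the 2 small RNA lists are left out. As drawn, the median is 1.33 for nuclear-retained long noncoding RNAs and -0.81 for granulosa markers, and this order of the lists changes with the filter and the value added.

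The stored messenger RNAs that make an oocyte an oocyte were split much like the median gene. Oocyte markers were high in both columns, from 62.2 to 4868 in the nucleus and from 349 to 15931 in the cytoplasm. Of the 16, 0 were higher in the nucleus and 2 lower (median -0.17). Zp3, the zona pellucida protein that binds sperm, had a nuclear value of 4487 and a cytoplasmic value of 15931 (-0.22), and Gdf9, the growth factor that oocytes send to granulosa cells, had 4577 and 15224 (-0.12). Bmp15, its partner, had 773 and 4520 (-0.94). Dazl, an RNA-binding protein of germ cells, had 189 and 1693 (-1.55). Ddx4, the germline helicase, had 62.2 and 397 (-1.06).

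Lists of related function lay within 0.3 of 0. Of 13 zona pellucida and secreted factor genes 1 was higher and 0 lower (median -0.12). The 1 was Ovgp1, with 5.03 and 0.208. Of the 10 subcortical maternal complex genes, whose proteins form a lattice needed by the early embryo, 0 were higher and 0 lower (median -0.049). Padi6 had 5312 and 16305 (-0.0059), Zbed3 had 5467 and 22057 (-0.40) and Ooep had 1979 and 10004 (-0.73). Under quantile normalization, which matches the 2 columns' highest values to each other, this list's median was -0.65 below that of all genes and that of the oocyte markers was -0.74. Of 15 oocyte transcription factor genes 1 was higher and 1 lower (median -0.29). Obox5, a homeobox gene, had 523 and 2899 (-0.86), and Sohlh2 had 0.790 and 10.8 (-1.60).

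Genes that mask, store or deadenylate oocyte messages had a median of -0.12, with 0 of 23 higher and 4 lower. The 4 were Dazl, Tob1, Zfp36l2 and Lsm14a. Tob1, a recruiter of the CCR4-NOT deadenylase, had 22.8 and 286 (-2.01). Zfp36l2, which binds AU-rich messages, had 23.4 and 156 (-1.11), and Lsm14a, a component of storage granules, had 65.3 and 405 (-1.02). Dppa3, a maternal-effect gene, was split like the median gene at 3243 and 10487 (-0.081). Of 31 meiotic resumption and cell cycle genes 1 was higher and 2 lower (median -0.19). Ccnb3, a cyclin of meiosis, had 4.91 and 4.67 (1.38). The checkpoint gene Mad2l1 had 88.0 and 581 (-1.11), and the kinase gene Wee1 had 30.8 and 199 (-1.07). Pttg1, which encodes securin, had 3312 and 11899 (-0.23).

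Housekeeping messages lay close to the median gene. Of 85 cytoplasmic ribosomal protein genes 1 was higher and 3 lower (median -0.0075), shares of 1.18% and 3.53% beside 13.2% and 10.3% of all genes. Rpl41 had 3183 and 9742 (-0.0015) and Rps29 had 2487 and 7643 (-0.0075). Rps27 stood apart with a nuclear value of 4.51 and a cytoplasmic value of 1832 (-6.88), against 153 and 2432 in WT. Rpl26 had 62.6 and 58.6 (1.68). Reads of ribosomal protein genes can be shared with their many pseudogenes, so both exceptions are uncertain. Of 76 mitochondrial ribosomal protein genes 6 were higher and 3 lower (median 0.0095), with Mrpl43 at 2182 and 1104 (2.59) and Mrpl51 at 1630 and 1384 (1.85). Of 90 nuclear-encoded respiratory chain genes 2 were higher and 7 lower (median -0.13), with Uqcrb, a subunit of complex III, at 215 and 1943 (-1.56). Of 62 translation factor genes 2 were higher and 2 lower (median -0.020), with Eif1a at 10.4 and 114 (-1.78) and Eif4g2 at 249 and 347 (1.13). Of 37 proteasome subunit genes 2 were higher and 1 lower (median -0.20).

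Genes whose proteins act on RNA or chromatin in the nucleus had list medians near that of all genes (-0.051). Of 63 spliceosome and splicing factor genes 5 were higher and 2 lower (median -0.067). Luc7l2, a factor of the U1 particle, had 4138 and 3696 (1.77), Ddx17, an RNA helicase, had 22.5 and 21.1 (1.62) and Hnrnpa1 had 16.0 and 129 (-1.37). Of 33 DNA methylation and chromatin modifier genes 0 were higher and 4 lower (median -0.0062). Dnmt1, the maintenance methyltransferase, had 681 and 2142 (-0.040). Among the 4 were Bmi1 and Rnf2, both of Polycomb complex 1, with 46.6 and 397 (-1.47) and 41.9 and 377 (-1.55). Of 24 mRNA export factor genes 1 was higher and 4 lower (median -0.20). Thoc5, of the THO complex, had 8.0 and 5.95 (1.77), and Fyttd1, an export adaptor, had 8.06 and 61.1 (-1.25).

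Replication-dependent histone genes went both ways, with 9 of 41 kept members higher, 9 lower and a median of -0.076. Hist1h2bh had 9.90 and 2.73 (2.84), Hist2h4 had 135 and 204 (1.01) and Hist1h2bc, the most abundant, had 210 and 1497 (-1.22). These messages normally end in a stem-loop without a tail, so the values may leave out untailed copies, and near-identical histone genes share reads.

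Some lists had medians on the cytoplasmic side. Of 40 endoplasmic reticulum folding and translocation genes 0 were higher in the nucleus and 4 lower, with a median of -0.44. The 4 are a share near the 10.3% of all genes. As deposited, 38 of 40 were lower, where 71.3% of all genes were. Lists with medians nearer 0 had like deposited counts, with 82 of 85 cytoplasmic ribosomal protein genes and 84 of 90 respiratory chain genes lower. Messages of the endoplasmic reticulum list are translated on the endoplasmic reticulum membrane. Dnajb9, a stress-induced co-chaperone, had a nuclear value of 5.97 and a cytoplasmic value of 99.0 (-2.33). Pdia3, a disulfide isomerase, had 49.8 and 391 (-1.35), and Ssr3, of the translocon, had 39.0 and 300.4 (-1.32). Ostc had 48.9 and 317 (-1.08). The chaperone gene Hspa5 had 114 and 691 (-0.98), just inside 2-fold.

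Immediate early genes, which code for short-lived messages, had a median of -0.59. Of 19 kept, 0 were higher and 6 (31.6%) lower, beside 13.2% and 10.3% of all genes. The list's median minus that of all genes was -0.53. It was -0.29 with 5 added in place of 1 and -0.31 with no filter. Klf2 had 1.54 and 20.1 (-1.76), Jun had 0.628 and 10.4 (-1.73), Junb had 3.72 and 34.9 (-1.48) and Fos had 0.0906 and 3.07 (-1.25). Jund, the most abundant, was split like the median gene at 46.3 and 137 (0.047). Of 20 p53 target genes 1 (5%) was higher and 3 (15%) lower, beside 13.2% and 10.3% of all genes (median -0.42). The 1 was Tnfrsf10b, a death receptor gene, with 64.4 and 8.78 (4.24). Of 329 Zfp zinc finger genes 31 (9.42%) were higher and 63 (19.1%) lower, with a median of -0.35. The family held outliers on the nuclear side. Zfp488 had 71.6 and 7.32 (4.60) and Zfp799 had 467 and 170 (3.06). Zfp57, the protector of imprints, had 1577 and 4543 (0.085).

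Markers of granulosa cells, the somatic cells that surround the oocyte, lay on the cytoplasmic side, with a median of -0.81. The table held 27 and 25 were kept, with 1 higher in the nucleus and 10 lower, beside 10.3% lower of all genes. The list summed to 208 in the null nucleus and 809 in the null cytoplasm, against 53.1 and 1311 in WT. In the nucleus 6 of the 27 were at 0 (Inha, Inhbb, Foxl2, Fst, Gja1 and Npr2), and in the cytoplasm 1 was (Has2). Inha, the inhibin alpha subunit, was listed at 0 in the nucleus and had 86.8 in the cytoplasm. Igfbp5 had 0.0303 and 30.7 (-4.14), Bex4 had 0.592 and 40.2 (-3.56) and the gap junction gene Gja1 was at 0 and 19.3. The labels do not say whether any granulosa cells were in these bulk samples, and the values do not show which cells the RNA came from. If granulosa cells were present, fewer of them and less RNA in each cannot be told apart. Id3 and Esr2, the most abundant members, were not low in the nucleus, with 108 and 300.3 (0.14) and 64.1 and 96.5 (1.01). The list's median was 0.13 above that of all genes among members with at least 1 in both columns, so its direction rests on members under 1 in the nucleus. Of 14 blood and immune markers 5 were kept, 0 were higher and 0 lower.

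Those markers stand beside the genes lowest in the nucleus. Of the 12 genes that the naming rule picked, 2 were granulosa markers (Inha and Igfbp5). Akr1b3, aldose reductase, had a nuclear value of 0.00269 and a cytoplasmic value of 83.4. Pnmt, which makes adrenaline, had 0.25 and 87.7 (-5.15), while in WT it had 6.18 and 3.49. Wfdc10 (53.1), S100a10 (30.4), Lect1 (28.7), Gm14920 (26.7) and Mgst1 (23.6) had cytoplasmic values and were listed at 0 in the nucleus. C130074G19Rik had 0.649 and 50.6 (-3.81). LOC100302567 was at 0 and 1058, and in WT the other way, at 375 and 0. Whether RNA of granulosa cells accounts for any of these values was not tested. Leaving out the 25 kept markers gave 1967 genes higher and 1524 lower.

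**Figure D2:**
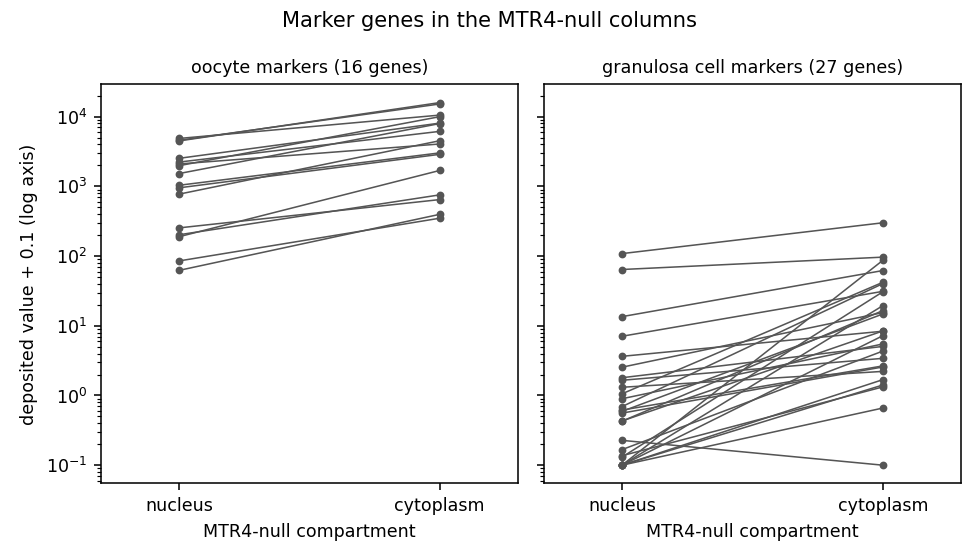
Deposited value plus 0.1 on a log axis in the MTR4-null nucleus and cytoplasm, 1 line per gene, for 16 oocyte and 27 granulosa cell markers. Oocyte markers are at 62.2 or above in both compartments, and the granulosa marker median is 0.491 for nuclei and 8.26 for cytoplasms.

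The split of coding messages varied with their base composition. Transcript models were matched by symbol for 98.4% of kept genes (GENCODE M21), and 8511 coding genes had a larger value of at least 20. In the quintile with the lowest GC content (33.8% to 44.1%) the median relative difference was -0.58, with 98 of 1703 genes higher in the nucleus and 395 (23.2%) lower. In the quintile with the highest GC content (55.5% to 72.8%) it was 0.21, with 126 of 1702 higher and 42 (2.47%) lower. The 3 quintiles between had medians of -0.33, -0.13 and 0.039, in order of rising GC content. GC-poor messages were thus on the cytoplasmic side and GC-rich ones on the nuclear side. Across these genes the Spearman correlation with GC content was 0.407, and 0.445 for the GC content of the 3' untranslated region alone and 0.315 for that of the coding sequence. In the WT columns the same genes had correlations of -0.160, -0.149 and -0.101. Genes share libraries, so these numbers are descriptions.

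The trend was present at each level of abundance, but was weak for low genes. The correlation with GC content was 0.0504 in coding genes whose larger value lay between 1 and 5, 0.367 between 20 and 100, 0.475 between 100 and 1000 and 0.389 from 1000. In WT the same bands gave -0.0332, -0.111, -0.207 and -0.321. GC content can alter how well RNA is copied and amplified in each library, and whether it did so here was not tested. Of the lists above, the Zfp genes had a median GC content of 45.7% and the endoplasmic reticulum genes one of 49.1%, beside 50.04% for all kept coding genes. After each gene's difference was centred on that of its decile of GC content, the Zfp median was -0.20 below that of all genes (-0.30 without centring). That of the endoplasmic reticulum genes was -0.26 (-0.39 without). That of the immediate early genes, at 54.6% GC, was -0.54 (-0.53 without). For the p53 target genes, at 48.5% GC, it was -0.11 (-0.36 without).

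Exon number moved with the difference as well. Among the same coding genes, the quintile with 1 to 4 exons had a median of -0.28 with 15.3% lower in the nucleus. The quintile with 17 to 115 exons had a median of 0.0099 with 3.98% lower. Crossing the features kept both trends. In the lowest tercile of GC content the median was -0.63 with 1 to 6 exons and -0.33 with 13 or more. In the highest tercile the medians were 0.014 and 0.33, and there 0 of 751 genes with 13 or more exons were lower. Transcript length gave a correlation of -0.021 with the difference in null, against 0.345 in WT.

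**Figure D3:**
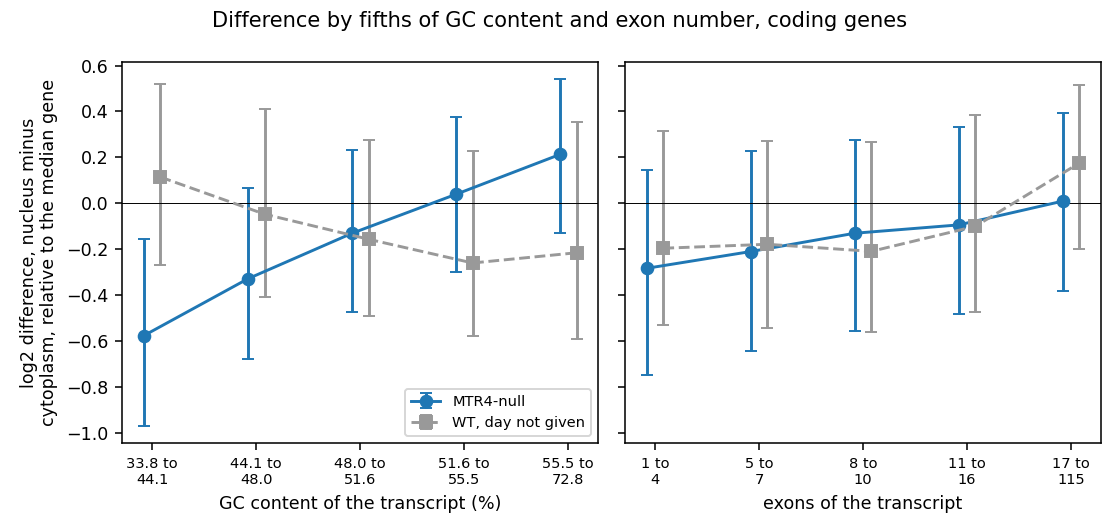
Median and quartiles of the relative log2 difference, nucleus minus cytoplasm, for coding genes with a larger null value of at least 20, in quintiles of transcript GC content (left) and exon number (right), in MTR4-null (blue circles) and WT (grey squares). In null the median goes from -0.58 in the GC-poorest quintile to 0.21 in the GC-richest, and in WT from 0.11 to -0.21.

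Short elements of the 3' untranslated region that oocytes use to control stored messages were counted in 8127 of these coding genes, with an untranslated region of at least 100 bases. The cytoplasmic polyadenylation element, searched as TTTTAT on the sense strand, was present in 58.5% of them. Genes with it had a median of -0.29 and genes without it 0.041. The AU-rich element, TATTTAT, was present in 30.04% (median -0.29 with and -0.099 without). The Pumilio element, TGTANATA, was present in 26.8% (-0.34 with and -0.099 without). TATTTAT and TTTTAT can overlap. Genes with an element also had GC-poorer and longer untranslated regions: for TTTTAT the median GC content was 41.8% with and 48.0% without. Within quintiles of that GC content, genes with TTTTAT were 0.097 to 0.20 lower in the median, those with TATTTAT 0.026 to 0.11 lower and those with TGTANATA 0.048 to 0.11 lower. A match is a description of the letters and not of a bound site.

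Genes whose transcripts hold a stretch of repeat were more often on the nuclear side than the rest. B1 and B2 are short interspersed repeats present in many copies across the mouse genome and within many transcripts. The 25-base stretches shared by the most transcripts were sought among kept genes with a transcript model. Those with fewer than 12 distinct runs of 3 bases were left out. The difference between the compartments did not enter the ranking. The first belonged to B1, and the next, after the surroundings of the first were left out, to B2. They are printed as read along the transcript, in both directions, since the direction separates an element's own strand from its complement. No base is marked in capitals because the whole stretch was matched.
B1 forward: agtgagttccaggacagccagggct
B1 reverse: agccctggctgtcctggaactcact
B2 forward: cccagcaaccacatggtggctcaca
B2 reverse: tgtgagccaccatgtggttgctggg
The forward B2 stretch was in 131 of 14714 transcripts (0.890%), and 71 of its genes (54.2%) were higher in the nucleus and 2 lower, with a median of 1.26. The reverse B2 stretch was in 93, of which 39 (41.9%) were higher and 4 lower (median 0.51). For B1, 61 of 172 genes (35.5%) with the forward and 62 of 186 with the reverse stretch were higher. Genes with none of the 4 had 11.9% higher and 10.5% lower of 14169. A match to 1 exact stretch misses diverged copies, so a gene counted as having none may still hold a repeat.

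**Figure D4:**
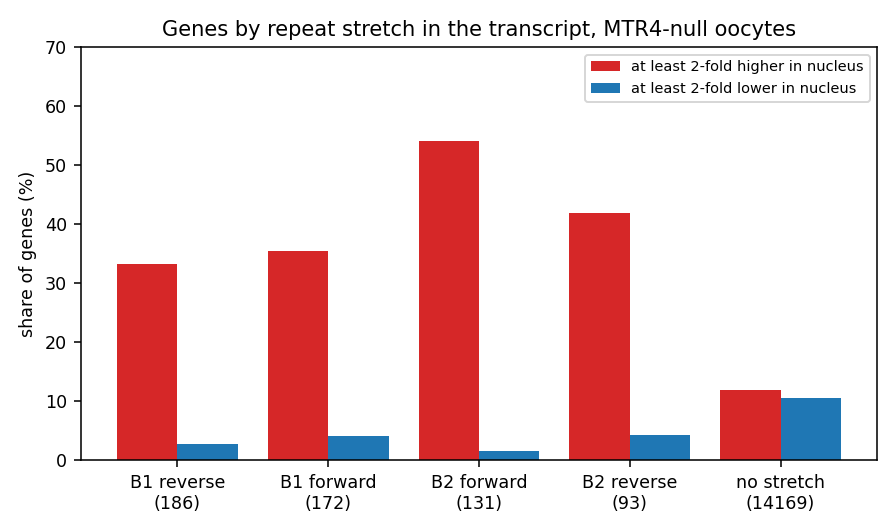
Share of genes (%) at least 2-fold higher (red) and at least 2-fold lower (blue) in the MTR4-null nucleus relative to the median gene, by repeat stretch in the transcript, with the number of genes in brackets. The forward B2 stretch has the highest share higher in the nucleus, 54.2%, against 11.9% of genes with no stretch.

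Genes with the forward B2 stretch were also abundant. Their median nuclear value was 174 and their median cytoplasmic value 260, against 11.6 and 35.0 for genes with no stretch. Pbld1, Nip7 and Churc1 were the 3 highest in the nucleus. Nip7, a ribosome assembly factor, had a nuclear value of 15643 and a cytoplasmic value of 13610 (1.81), and Churc1 had 10826 and 9547 (1.79). The splicing factor gene Luc7l2 and the exosome gene Exosc2, described above, hold the stretch too, as does Tspan15. Pola2, Cort and Il11 do not. Reads from the many copies of a repeat cannot be assigned to 1 gene with certainty, so levels of these genes are uncertain. In WT the forward B2 genes had a median difference of 2.2, with 78 higher.

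In the WT columns 1497 of 14826 kept genes (10.1%) were higher in the nucleus and 1022 (6.89%) lower. The null and WT differences share no column, and 13631 genes passed the filter in both. Among them 1600 were higher in the nucleus in null and 1335 in WT. The 619 in both were 38.7% of the null list, beside 9.79% of all these genes higher in WT. They were 46.4% of the WT list, beside 11.7% of all these genes higher in null. For genes lower in the nucleus the numbers were 1314 in null, 924 in WT and 154 in both. The 154 were 11.7% of the null list, beside 6.78% of all these genes lower in WT. They were 16.7% of the WT list, beside 9.64% of all these genes lower in null. Across all 13631 genes the Spearman correlation between the differences was 0.0945. The WT columns name no day, so genotype and age cannot be told apart in this comparison, and the difference between the genotypes was not tested.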

How the data were processed

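The deposited table holds 1 value per gene symbol for WT and MTR4-null nuclei and cytoplasms. The authors deposited it as FPKM by its name; per the submitters' processing notes, mm9, Cufflinks 2.2.1 and TopHat2 2.1.1 were used, with no roles or settings stated. The deposited values were used as a score, since the columns are not on 1 scale. Among values of at least 20, 100% in the null cytoplasm had at most 6 digits once doubled, against 25.1% in the null nucleus, so the former may hold 1 library and not a mean of 2. Each null column was rescaled by the median ratio of nucleus to cytoplasm (0.327, over genes above 0 in both), 1 was added and log2 differences were taken (Python 3.11.15, pandas 2.3.3, numpy 2.4.6). The steps were checked on simulated data. Exact zeros stay as listed. Members and the 29 lists were chosen with earlier results of these data known. Named genes were the 12 highest and 12 lowest by relative difference, other than small RNA entries, with a larger value of at least 20, the extremes of each list (the 4 largest differences and 2 highest levels) and the highest values; genes named beyond these (such as Xist, Hspa5 and the B2 examples) were chosen after their values were seen. Limma over libraries was planned only if the table held library columns, which it does not.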

Additional observations from a re-analysis of the deposited data

Results flagged for a closer look

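The relation between GC content and the nucleus minus cytoplasm difference ran in opposite directions in the genotypes. Across 8511 coding genes with a larger null value of at least 20, the Spearman correlation was 0.407 in the MTR4-null columns and -0.16 in the WT columns. The difference between the genotypes was not tested, because each genotype and compartment has 1 column. The WT columns name no day, and age, genotype and library preparation cannot be told apart here.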

How the results depend on the processing

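No paired analysis was possible because the table holds no column per library, and for the same reason no library could be left out. As deposited, 585 genes passed the 2-fold threshold towards the nucleus and 10670 towards the cytoplasm, so 5.2% of calls were higher, against 56.2% after rescaling. Leaving out small RNA entries or repeat-holding genes, also chosen after seeing the data, kept the counts within 1.5-fold. These steps left 14817 and 14413 of the 14958 genes, so the counts had little room to move. With a pseudocount of 5 the counts were 1108 and 671 (62.3% higher), 933 were lower with at least 1 in both columns and 1290 were higher with at least 5 in 1 column. Differences of list, class and feature medians were recomputed under 9 of the 11 alternatives, those leaving out small RNA or repeat-holding genes not being run on them. Of 286 such values, 271 shifted by at most 0.58 on the log2 scale, a factor of 1.5. Many main values lay within 0.58 of 0 and could change sign without being counted as shifted. Cytoplasmic ribosomal protein genes, for example, had 0.043 and, as deposited, -0.15. The count therefore does not show that directions held. Small nucleolar and Cajal body RNAs had 8.66 as deposited, 11.4 and 6.16 with pseudocounts of 0.1 and 5, and 2.91 with at least 1 in both columns. Nuclear-retained long noncoding RNAs had 2.05 and 0.62 with those pseudocounts, 0.76 with at least 1 in both columns and 0.70 with at least 5 in 1. Granulosa markers had -2.24 with a pseudocount of 0.1, -2.02 with at least 5 in 1 column and, with the direction turned, 0.13 with at least 1 in both. Under quantile normalization microRNA entries had 0.50, subcortical maternal complex genes -0.65 and oocyte markers -0.74. GC centring, chosen after seeing the data, reduced the gap between the extreme GC quintiles to 0.053, by construction, and gave 1992 higher and 1127 lower (63.9% higher). For the other moves the cause was not tested. Read depth is unknown, so the precision of low values cannot be given.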
